A study of Mus musculus with 30 samples.

Results

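Podocyte slit diaphragm genes were described in mouse kidney as 8 genes taken by symbol from the gene names of the kidney count table, out of 54838 genes in all. They are *Nphs1*, *Podxl*, *Synpo*, *Wt1*, *Ptpro*, *Cd2ap*, *Magi2* and *Plce1*, and all 8 were found. All 8 passed the filter on low counts, which kept 17120 genes.

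The kidneys came from male wild-type C57BL/6J mice that were moved to thermoneutral housing (30 to 32 °C) at 6 weeks of age. From Week 7 the mice received a control diet (CD group), a Western diet rich in fat and sucrose (WD group), or the same Western diet with cyclo(His-Pro) (CHP), a small ring made of the amino acids histidine and proline (WD + CHP group). The gavage dose was 20 mg/kg of CHP, repeated 3 times each week, with water in its place for CD and WD. Tissue was taken at Week 24, and the mice had no food for the last 3 h. Thermoneutrality and gavage were thus common to all groups, and no CD group with CHP was analysed here. Each group had 5 kidney libraries, and a second set of 15 libraries came from the gastrocnemius, a calf muscle. The series follows liver disease, and the kidney served to look at the diet and CHP outside the liver.

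Podocytes are the epithelial cells that cover the capillaries of the glomerulus, the filter of the kidney. Their foot processes interlock, and the gap between neighbouring processes is bridged by the slit diaphragm, a cell junction built on nephrin. Adaptor proteins tie nephrin to the actin cytoskeleton, a sialic acid-rich coat keeps the filtration slits open, and the transcription factor WT1 maintains the podocyte programme. Podocytes do not readily divide, and their injury or loss is known to cause proteinuria. They form a small share of kidney tissue, most of which is tubule.

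The gene positions are those of GENCODE M21 on GRCm38, the build named in the submitters' processing notes. *Nphs1*, which encodes nephrin, lies at chr7:30458315-30487223 on the plus strand. *Podxl* encodes podocalyxin, the main sialoprotein of the podocyte surface, and lies at chr6:31519488-31563981 on the minus strand. *Ptpro* encodes a receptor-type tyrosine phosphatase of the podocyte foot process and lies on the same chromosome at chr6:137252319-137463233 on the plus strand. *Synpo* encodes synaptopodin, an actin-associated protein of foot processes (chr18:60593973-60660142, minus strand). *Cd2ap* encodes an adaptor that binds nephrin and actin regulators (chr17:42792951-42876665, minus strand). *Magi2* encodes a membrane-associated scaffold protein that also binds nephrin (chr5:19227036-20704792, plus strand). *Plce1*, which encodes phospholipase C epsilon, lies at chr19:38481109-38785030 on the plus strand. *Wt1* (chr2:105126529-105173616, plus strand) encodes the transcription factor named above. *Nphs1* shares 9.02% of its exon bases with *Nphs1os* and 2.76% with *Rps12-ps4*, both on the opposite strand. *Magi2* shares 1.79% of its exon bases with *Gm29254*. These 3 neighbours had 0 to 5 counts in any kidney library, against at least 453 for *Magi2* and 556 for *Nphs1*. The strand setting of the counting is not given in the sources used here.

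Kidney libraries held 37189192 to 38211422 counts each, and mitochondrial genes took 17.79% to 21.06% of them. Levels are given as CPM, the counts relative to the library size after TMM scaling, and 3 counts correspond to 0.0763 to 0.0835 CPM. Frozen liver is entered as the source of the RNA in the extraction labels of every library, whereas the methods and the tissue labels name kidney. The 15 proximal tubule markers summed to 38520 to 47600 CPM in the libraries labelled kidney and to 230.4 to 386.6 CPM in those labelled gastrocnemius. The 6 hepatocyte markers summed to 98.38 to 774.6 CPM in the kidney libraries. No liver library was analysed here. The labels do not tie the 5 libraries of a group to animals, while the methods describe sequencing of RNA mouse by mouse, so that p-values measure the spread between 5 mice if each library is one of them. In RNA from whole tissue, fewer podocytes and less RNA per podocyte cannot be told apart.

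Promoter sequence from RefSeq (GRCm38.p6) was found for 5 of the 8 genes, *Nphs1*, *Ptpro*, *Cd2ap*, *Magi2* and *Plce1*, and not for *Podxl*, *Synpo* and *Wt1*. The 250 bases before the RefSeq start site of *Ptpro* and of *Cd2ap* are shown because these genes differed in how closely they followed the others between libraries of 1 group. Capitals mark matches to GNGNGGGNG, a motif bound by WT1 and EGR factors, on either strand, and neighbouring matches may overlap. The *Ptpro* window lies outside the gene as GENCODE M21 annotates it, whereas 241 of the 250 bases of the *Cd2ap* window lie inside the annotated gene.
Ptpro chr6:137252049-137252298 (plus strand): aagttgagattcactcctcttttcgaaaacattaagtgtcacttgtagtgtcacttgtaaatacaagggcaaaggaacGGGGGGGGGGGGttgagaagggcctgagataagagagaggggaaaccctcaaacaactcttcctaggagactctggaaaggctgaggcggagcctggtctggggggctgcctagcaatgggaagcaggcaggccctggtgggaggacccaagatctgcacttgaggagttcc
Cd2ap chr17:42876425-42876674 (minus strand): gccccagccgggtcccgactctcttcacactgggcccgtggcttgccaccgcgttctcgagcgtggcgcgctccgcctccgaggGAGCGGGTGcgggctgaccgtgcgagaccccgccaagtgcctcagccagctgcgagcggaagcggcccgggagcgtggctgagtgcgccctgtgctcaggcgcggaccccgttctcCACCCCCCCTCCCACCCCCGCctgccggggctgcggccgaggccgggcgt
The *Ptpro* window held 4 matches, all within a run of G bases, and had 3 CpG dinucleotides and a GC content of 53.6%. The *Cd2ap* window held 6 matches, 31 CpG dinucleotides and a GC content of 76.4%. Over all 32851 promoters the median was 6 CpG dinucleotides and 52.4% GC, and 35.8% of promoters held at least 1 match. Of the other windows, *Nphs1* had 5 matches, *Plce1* had 0, and *Magi2* had 3 and 2 at its 2 start sites. All 250 bases of the *Nphs1* and *Plce1* windows fall in annotated UTR of the same genes, so these 2 windows are not upstream of every annotated transcript. TAATTA, bound by LIM homeodomain factors, was present at 1 of the *Magi2* start sites and at none of the other member windows, and in 4.84% of all promoters. A match describes letters in a window and is no evidence of binding.

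WD + CHP replicate 5 stood apart from its group for these genes. It was the highest of the 5 libraries for 7 of the 8, with *Cd2ap* as the exception, where it was second. Its CPM exceeded the mean of the other 4 WD + CHP libraries by a factor of 1.44 for *Wt1* and 1.34 for *Nphs1*, and by 1.04 to 1.16 for the other 6. Its summed level of the 15 proximal tubule markers, 42120 CPM, was the lowest of its group (44770 to 47600 CPM in the others). That came from *Kap* (16930 CPM against 19690 to 22840 CPM), and the other 14 markers summed to 25190 CPM, within the 23380 to 26540 CPM of the others. The summed level of 12 immune cell markers was also the lowest (211.3 against 250.4 to 284.8 CPM). The summed level of 15 loop, distal and collecting duct markers was the highest of the group, at 5144 CPM against 4459 to 4929 CPM. Glomerular endothelium markers, 14 genes, summed to 740.3 CPM in this library and to 740.1 to 829.6 CPM in the others. Mesangial and juxtaglomerular markers, 12 genes, summed to 308.5 CPM, within the group's range of 299.7 to 349.0 CPM, and 10 parietal epithelium markers to 486.0 CPM, the highest of the group (469.8 to 481.3 CPM in the others). Of the lists of podocyte genes, it was highest of the group for surface genes (1923 CPM against at most 1878), transcription factors (440.2 against at most 422.9 CPM) and slit diaphragm genes other than the 8 (884.9 against at most 877.0 CPM), but not for the cytoskeleton and basement membrane lists. Adipocyte markers, 6 genes, summed to 5.899 CPM against 0.7233 to 2.3 CPM, and 6 hepatocyte markers to 177.7 CPM, the lowest of the group, against 213.0 to 261.1 CPM. Its depth (37447872 counts) and mitochondrial share (19.94%) lay within the range of the group. Whether any of these values bears on its podocyte genes was not tested, and fold changes and counts of calls that involve WD + CHP are also given without it further on.

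Divided by the length of all exons, the kidney level of the 8 genes spanned a wide range. *Podxl* was highest at 39.0 CPM per kb over the 15 libraries (33.2 to 45.6), followed by *Cd2ap* at 7.79 (7.19 to 8.38) and *Synpo* at 6.15 (5.35 to 7.26). *Nphs1* at 2.67 CPM per kb (2.27 to 3.22), *Ptpro* at 2.18 (1.74 to 2.41) and *Wt1* at 1.93 (1.54 to 2.45) came next. *Magi2* at 1.27 CPM per kb (1.10 to 1.53) and *Plce1* at 0.449 (0.388 to 0.509) were lowest. The ranges of *Cd2ap* and *Synpo* overlapped, and so did those of *Nphs1*, *Ptpro* and *Wt1*, whereas *Podxl*, *Magi2* and *Plce1* overlapped with none of their neighbours. Within single libraries the order was the same in 13 of 15. The exceptions were CD replicate 5 and WD + CHP replicate 5, where *Wt1* stood above *Ptpro*.

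**Figure D1:**
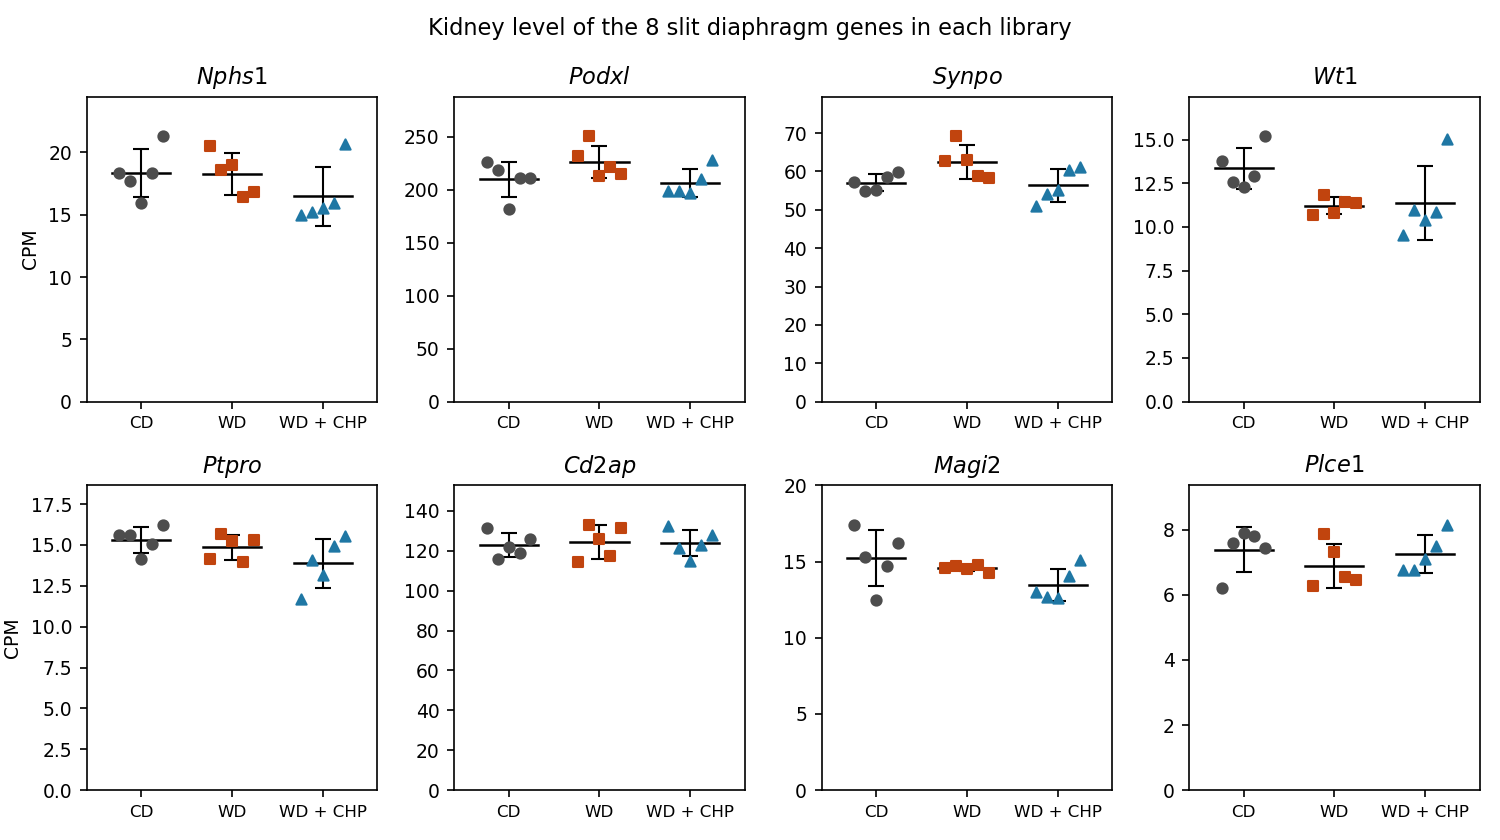
Kidney level of each gene in CPM (vertical axes start at 0) for the 5 libraries of CD (circles), WD (squares) and WD + CHP (triangles), drawn in the order of the replicate numbers; lines and bars are the mean ± SD. The groups lie close together for every gene, *Wt1* is lower in all WD than in all CD libraries, and the right-most WD + CHP library is the highest of its group for 7 of 8 genes.

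The first comparison, WD vs. CD, asked what the Western diet did to the genes. None of the 8 was called (edgeR quasi-likelihood test, Benjamini-Hochberg adjusted over all genes, threshold 0.05), against 9.65% of the 17120 genes tested, and DESeq2 and limma-voom also called 0. At an unadjusted p under 0.05 there were 2 of 8, *Wt1* and *Synpo*, beside 24.9% of all genes, and 1 to 3 when libraries were left out in turn. Values lay below 0 in 5 of the 8 genes and in 49.6% of all genes. The median log2 fold change of the 8 was -0.02, and that of all genes was 0.0015. The 95% intervals of the 8 genes lay between -0.45 and 0.24 on the log2 scale, and a p that misses the threshold does not show that the levels were equal.

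*Wt1* stood at 13.8, 12.6, 12.3, 12.9 and 15.2 CPM in CD and at 10.7, 11.8, 10.8, 11.4 and 11.3 CPM in WD. Every WD library lay below every CD library. It was the only one of the 8 whose groups did not overlap, and in 8.7% of all genes WD and CD did not overlap (4.67% with WD lower). Its log2 fold change was -0.25 ± 0.0959 (SE, 95% interval -0.45 to -0.05), a fold of 0.841, with an adjusted p of 0.11 in edgeR's test. When only the CD and WD libraries were fitted, with their own estimate of the spread, the adjusted p of *Wt1* was 0.0254 for the same log2 fold change of -0.25, and *Wt1* was then the 1 gene of 8 called beside 9.33% of all genes. Over the alternatives that left out 1 library its adjusted p was 0.115 to 0.253.

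*Synpo* stood at 57.2, 55.0, 55.1, 58.5 and 59.8 CPM in CD and at 62.7, 69.2, 63.1, 58.7 and 58.2 CPM in WD. The groups overlapped, since 2 WD libraries lay within the CD range. Its log2 fold change was 0.13 ± 0.0555 (SE, adjusted p 0.161, edgeR). *Podxl* had 226, 219, 182, 211 and 210.5 CPM in CD and 232, 250.2, 212, 221 and 215 CPM in WD. CD replicate 3 was the lowest and WD replicate 2 the highest, and the rest overlapped. Its log2 fold change was 0.11 ± 0.0604 (SE, adjusted p 0.279, edgeR).

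For nephrin itself WD and CD were close. *Nphs1* stood at 18.4, 17.7, 15.9, 18.3 and 21.3 CPM in CD and at 20.5, 18.6, 19.0, 16.5 and 16.8 CPM in WD. The means were 18.3 ± 1.94 and 18.3 ± 1.68 CPM (SD, n = 5 in each), and the 95% interval of the log2 fold change ran from -0.20 to 0.19. The 4 other genes had log2 fold changes from -0.10 (*Plce1*) to 0.02 (*Cd2ap*), with overlapping groups and adjusted p of 0.49 to 0.859 in edgeR's test.

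The second comparison, WD + CHP vs. WD, asked what CHP did on the Western diet. None of the 8 genes was called by edgeR, DESeq2 or limma-voom. Over all genes edgeR called 18, or 0.105%. At an unadjusted p under 0.05 there were 2 of 8, *Synpo* and *Podxl*, beside 11.4% of all genes. This count was 0 to 5 when libraries were left out in turn, and it was 0 where the library left out was WD replicate 2 or WD + CHP replicate 1. It was 1 (*Podxl*) once the length and GC of transcripts were corrected for, where the log2 fold changes were -0.11 for *Podxl*, -0.10 for *Synpo*, -0.10 for *Nphs1*, -0.12 for *Magi2*, -0.09 for *Ptpro*, -0.07 for *Cd2ap*, 0.02 for *Plce1* and 0.06 for *Wt1*. The values lay below 0 in 6 of the 8 genes and in 52.4% of all genes, and the medians were -0.11 and -0.0058. The groups were separate for 0 of the 8 genes and for 2.36% of all genes, and the 95% intervals lay between -0.34 and 0.25 on the log2 scale.

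*Synpo* stood at 51.0, 54.3, 55.1, 60.3 and 61.2 CPM in WD + CHP, against 58.2 to 69.2 CPM in WD. The lowest 3 WD + CHP libraries lay below all WD libraries, and the other 2 lay within the WD range. Its log2 fold change was -0.15 ± 0.0556 (SE, adjusted p 0.316, edgeR). *Podxl* had 199, 199, 197, 210.0 and 228 CPM in WD + CHP, against 212 to 250.2 CPM in WD. Here 4 libraries lay below the WD range and replicate 5 lay inside it. Its log2 fold change was -0.13 ± 0.0605 (SE, adjusted p 0.427, edgeR).

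*Nphs1* stood at 15.02, 15.2, 15.5, 15.9 and 20.7 CPM in WD + CHP. The first 4 libraries lay below every WD library (16.5 to 20.5 CPM), and replicate 5 was above all of them. The log2 fold change was -0.15 ± 0.0921 (SE, adjusted p 0.574, edgeR), and it was -0.24 ± 0.077 (SE, adjusted p 0.166, edgeR) without replicate 5. *Ptpro*, at 15.6, 15.6, 14.1, 15.04 and 16.2 CPM in CD and 14.1, 15.7, 15.2, 13.95 and 15.3 CPM in WD, had 11.7, 14.1, 13.2, 14.9 and 15.5 CPM in WD + CHP. Its groups overlapped, with a log2 fold change of -0.10 against WD. *Magi2* had 17.4, 15.3, 12.5, 14.7 and 16.2 CPM in CD, 14.6, 14.7, 14.5, 14.8 and 14.2 CPM in WD, and 13.0, 12.6, 12.6, 14.03 and 15.1 CPM in WD + CHP. The WD libraries lay within a narrow band, with 4 WD + CHP libraries below it and replicate 5 above it, and the log2 fold change was -0.11 (adjusted p 0.595, edgeR).

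The other 3 genes had log2 fold changes between -0.01 and 0.07 against WD. *Wt1* stood at 9.56, 10.98, 10.4, 10.8 and 15.05 CPM in WD + CHP, against 10.7 to 11.8 CPM in WD. Replicates 1 and 3 lay below the WD range, replicates 2 and 4 inside it, and replicate 5 above it, close to the highest CD library. The log2 fold change was 0.02 ± 0.0969 (SE), and -0.10 without replicate 5. *Cd2ap* had 131, 116, 122, 119 and 126 CPM in CD, 114, 133, 126, 117 and 131 CPM in WD, and 132, 122, 115, 123 and 128 CPM in WD + CHP. All 3 groups of *Cd2ap* covered the same range, and its 95% interval, -0.11 to 0.10 on the log2 scale, was the narrowest of the 8. *Plce1* had 6.21, 7.57, 7.90, 7.82 and 7.43 CPM in CD, 6.28, 7.87, 7.31, 6.54 and 6.46 CPM in WD, and 6.76, 6.76, 7.09, 7.49 and 8.15 CPM in WD + CHP. Its groups overlapped as well, with a log2 fold change of 0.07 ± 0.0824 (SE).

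**Figure D2:**
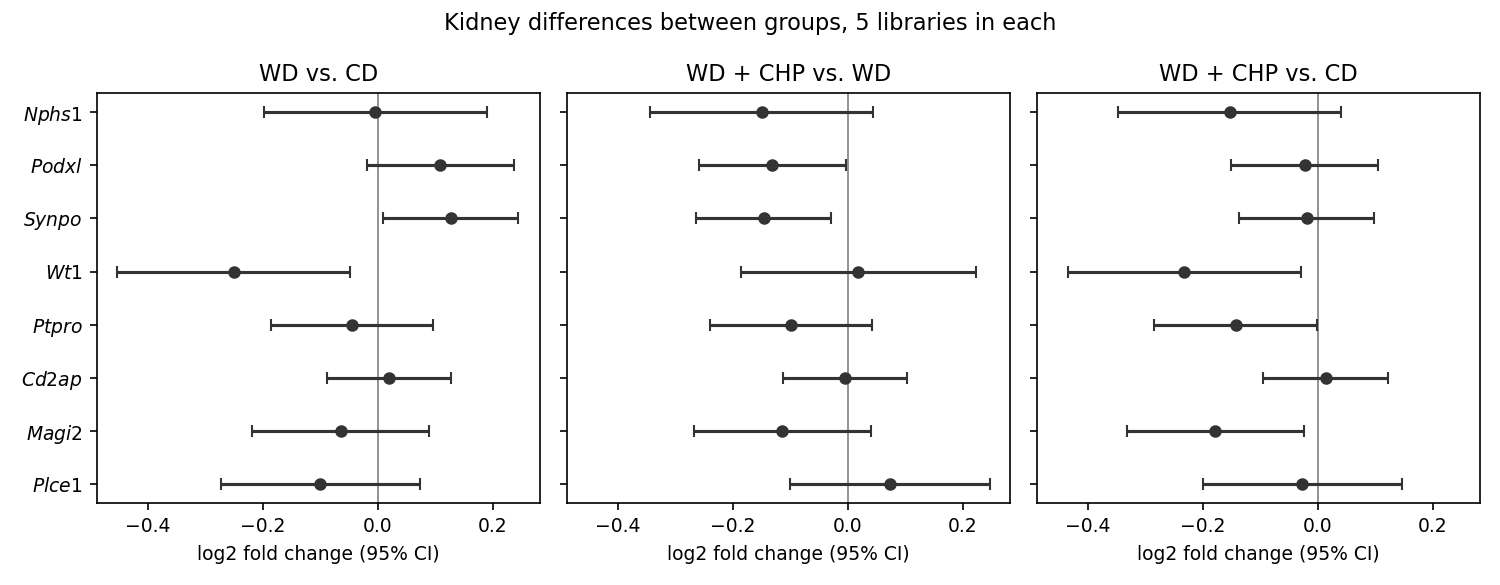
Log2 fold change of each gene (horizontal axis, with the 95% interval of the edgeR fit as bars) in WD vs. CD (left), WD + CHP vs. WD (middle) and WD + CHP vs. CD (right), 5 kidney libraries in each group. The points lie between -0.25 and 0.13, and no gene passed the adjusted threshold in any of the 3 comparisons.

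The third comparison, WD + CHP vs. CD, shares its groups with the other 2, so its values are set beside theirs and are no separate evidence. None of the 8 genes was called by edgeR, DESeq2 or limma-voom, beside 12.1% of all genes called by edgeR. At an unadjusted p under 0.05 there were 3 of 8, *Wt1*, *Magi2* and *Ptpro*, beside 27.4% of all genes. This count was 0 when only CD and WD + CHP were fitted, 1 with the length and GC correction, and 0 to 4 when libraries were left out in turn, with 0 for 5 of the 10 (CD replicates 1 and 5, WD + CHP replicates 1, 2 and 3). The log2 fold changes were below 0 in 7 of the 8 genes and in 51.3% of all genes, with medians of -0.08 and -0.0050. The groups were separate for 0 of the 8 genes and for 8.34% of all genes. *Wt1* had -0.23 ± 0.096 (SE, adjusted p 0.126), *Magi2* -0.18 ± 0.073 (SE, adjusted p 0.123), *Nphs1* -0.15 ± 0.092 (SE, adjusted p 0.305) and *Ptpro* -0.14 ± 0.0669 (SE, adjusted p 0.177) in the edgeR fit. *Podxl*, *Synpo*, *Cd2ap* and *Plce1* lay between -0.03 and 0.01.

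Leaving out WD + CHP replicate 5 changed this comparison for 2 genes. Without it *Wt1* was called at -0.35 ± 0.0653 (SE, adjusted p 0.00416, edgeR) and *Nphs1* at -0.25 ± 0.0769 (SE, adjusted p 0.0495, edgeR), both lower than CD, beside 11.4% of all genes. *Magi2* at -0.22 (adjusted p 0.0627, edgeR) and *Ptpro* at -0.18 (adjusted p 0.0811, edgeR) were not called. These 4 were at an unadjusted p under 0.05, beside 27.0% of all genes. In WD + CHP vs. WD without this library, 0 of the 8 genes were called, beside 0.272% of all genes, and 5 were at an unadjusted p under 0.05, beside 13.3%. These 5 were *Nphs1*, *Podxl*, *Synpo*, *Ptpro* and *Magi2*, with log2 fold changes of -0.24, -0.17, -0.18, -0.14 and -0.16. This choice was made with the high values of that library known. A CD library also mattered, since without CD replicate 3, the lowest CD library for 5 of the 8 genes, *Magi2* was the 1 gene called in WD + CHP vs. CD (-0.23, adjusted p 0.0244, edgeR), beside 10.6% of all genes.

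**Figure D3:**
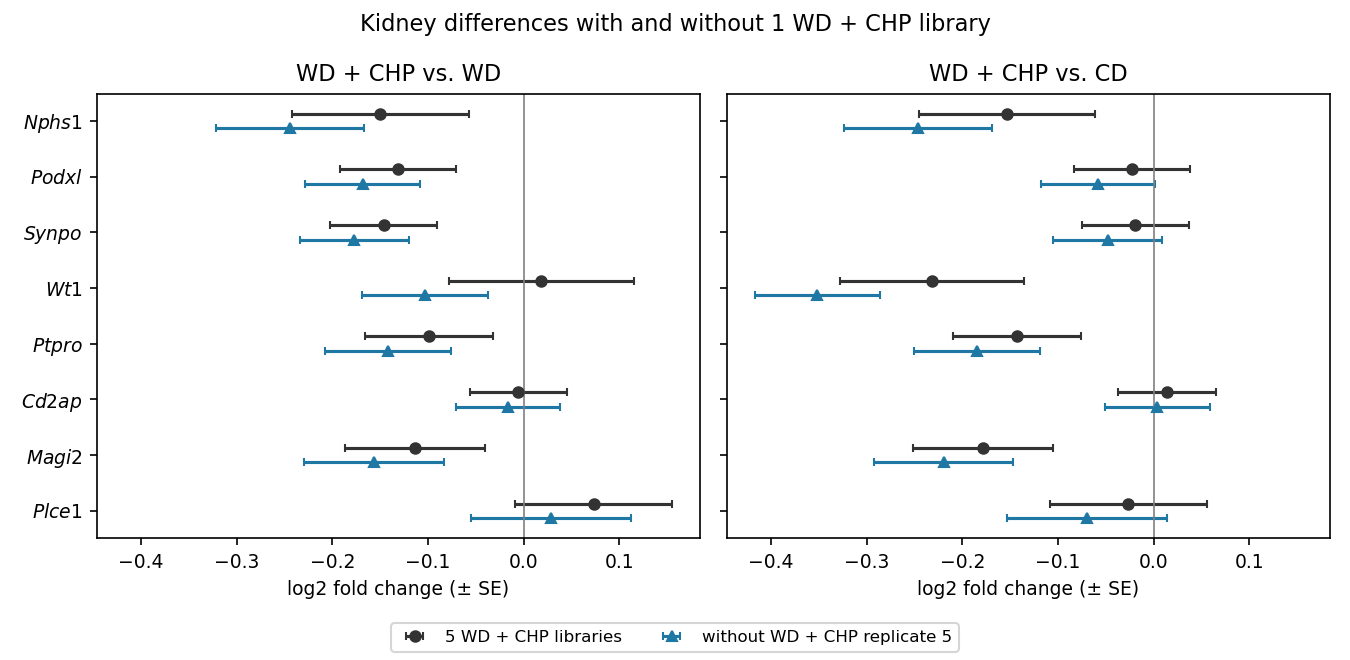
Log2 fold change (horizontal axis, bars are ± SE of the edgeR fit) in WD + CHP vs. WD (left) and WD + CHP vs. CD (right) with all 5 WD + CHP libraries (circles) and without WD + CHP replicate 5 (triangles). All 8 values move to the left without this library, most for *Wt1* and *Nphs1*.

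The 8 genes were next compared between libraries of the same group, after the group mean was taken from each gene's log2 CPM. Over the 15 libraries 27 of the 28 pairs of genes had a Pearson's r above 0, with a median of 0.571. *Podxl* and *Magi2* had the highest value (r = 0.812) and *Magi2* and *Plce1* the lowest (r = -0.144). Without WD + CHP replicate 5 the median was 0.438 and 24 pairs were above 0. These are descriptions of 15 libraries, in which genes share depth and tissue composition.

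*Wt1* (r = 0.815), *Synpo* (0.803), *Ptpro* (0.778), *Nphs1* (0.755), *Podxl* (0.709) and *Magi2* (0.652) each followed the mean of the other 7 genes. *Plce1* (r = 0.294) and *Cd2ap* (r = 0.251) did so least, and without WD + CHP replicate 5 their values were 0.065 and 0.184, against 0.563 to 0.793 for the 6 others. CD replicate 3 was the lowest of its group for 5 genes, CD replicate 5 the highest for 4, and WD replicate 2 the highest for 6. As a measure that keeps the group differences, each gene's mean over all 15 libraries was taken from its log2 CPM instead, and the 8 values were averaged in each library. This average was -0.07 to 0.13 in CD, -0.04 to 0.12 in WD and -0.16 to 0.14 in WD + CHP, around group means of 0.0403, 0.0162 and -0.0564. Without WD + CHP replicate 5 the WD + CHP range was -0.16 to -0.02 and its mean -0.106. All 3 ranges overlapped with and without that library.

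**Figure D4:**
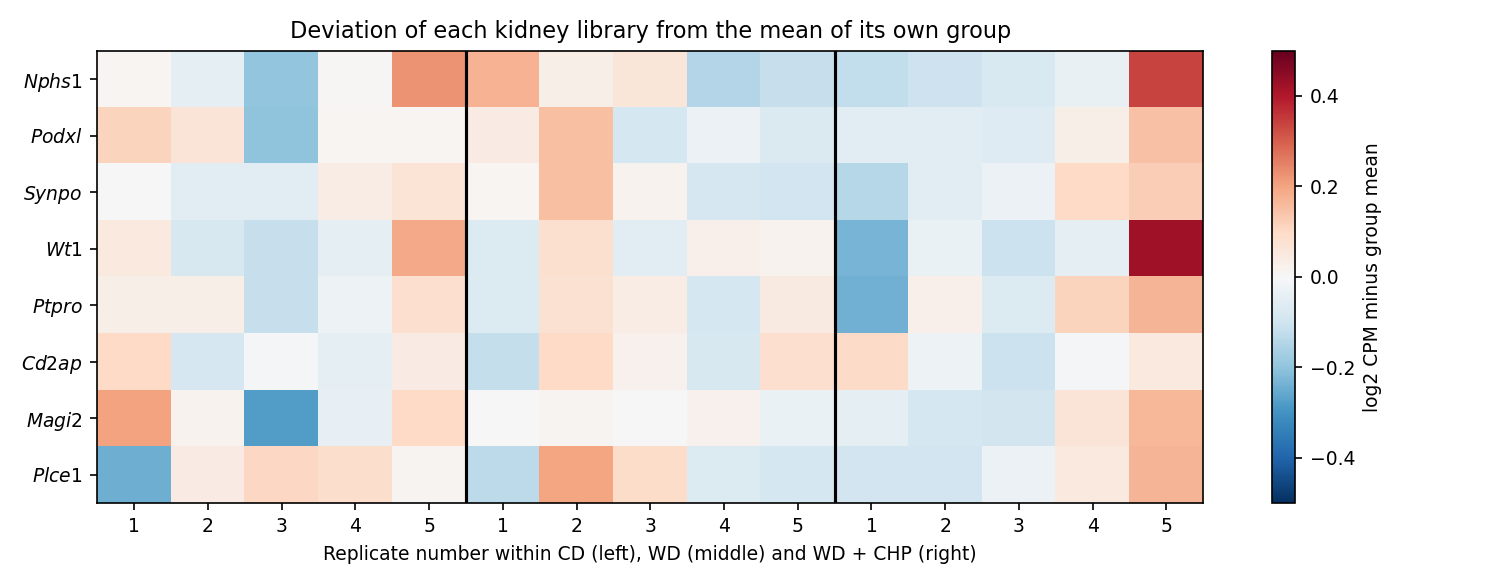
Log2 CPM of each gene (rows) minus the mean of its own group, in the 15 kidney libraries (columns, numbered within CD, WD and WD + CHP from left to right); red is above and blue below the group mean. WD + CHP replicate 5 is above its group mean for all 8 genes, and CD replicate 3 is low for most.

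Among 12452 other genes with a mean log2 CPM of at least 1, the 10 whose centred level was most like the mean of the 8 included *Vwce* (r = 0.929), *Dpyd* (0.924), *Bcl11b* (0.887), *Tspan2* (0.871), *Gm15848* (0.859), *Cttnbp2* (0.856), *Tmem26* (0.854) and *Pappa2* (0.85). No gene of the podocyte lists was among these 10. *Dpyd* encodes the enzyme that starts pyrimidine breakdown. In the podocyte surface list, *Sema3e*, *Sema3g* and *Sulf1* were within the 100 most alike (r = 0.758, 0.732 and 0.724), and the values of that list ran from -0.644 to 0.758, with 6 of 22 below 0. Of the lists of other cells, *Myh11* (mesangial, r = 0.76) and *Slc5a12* (proximal tubule, 0.74) were also within these 100, although 5 of 11 mesangial markers (lowest r -0.308) and 6 of 15 proximal tubule markers (lowest r -0.854) were below 0. The median r was 0.339 over 16 other slit diaphragm genes, 0.339 over 22 surface genes, 0.235 over 19 cytoskeleton genes, 0.15 over 11 transcription factors and 0.008 over 20 basement membrane and adhesion genes, against -0.017 over all genes ranked. Without WD + CHP replicate 5 these medians were 0.324, 0.33, 0.158, 0.337 and 0.1, against -0.001. For 15 proximal tubule markers the median was 0.192 with and 0.115 without that library, for 14 glomerular endothelium markers -0.014 and 0.214, for 11 mesangial and juxtaglomerular markers 0.03 and 0.241, and for 8 immune cell markers -0.387 and -0.08.

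Other podocyte genes were read from 5 lists, with 93 genes tested. In WD vs. CD 6 of the 93 were higher and 0 lower, or 6.45% called, beside 9.65% of all genes. Of the cytoskeleton list, 3 of 22 were higher. *Ezr* encodes ezrin, which links podocalyxin to actin, and its mean rose from 342.8 to 401.1 CPM (log2 fold change 0.23 ± 0.0341 SE, adjusted p 0.000782, edgeR). *Slc9a3r2* encodes NHERF2, a scaffold that binds podocalyxin and ezrin, and its mean rose from 43.0 to 56.2 CPM (0.39 ± 0.0669 SE, adjusted p 0.00213, edgeR). *Vim*, which encodes the filament protein vimentin, had 0.24 ± 0.0732 (SE, adjusted p 0.0489, edgeR). All 3 are also expressed in other cells of the kidney.

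Of the other lists in WD vs. CD, *Cdh3* (P-cadherin, 0.28, adjusted p 0.0406) was the 1 of 17 slit diaphragm genes called, *Parva* (an integrin adhesion protein, 0.18, adjusted p 0.0345) the 1 of 20 basement membrane and adhesion genes, and *Pth1r* (the parathyroid hormone receptor, 0.24, adjusted p 0.0099) the 1 of 22 surface genes, all 3 higher in edgeR's test. Of 12 podocyte transcription factors 0 were called.

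In WD + CHP vs. WD 0 of the 93 genes were called, beside 0.105% of all genes. The median log2 fold change was -0.04, beside -0.0058 for all genes. Values lay below 0 for 16 of 22 cytoskeleton, 15 of 20 basement membrane and adhesion and 14 of 22 surface genes. The same held for 7 of 12 transcription factors and 8 of 17 other slit diaphragm genes, beside 52.4% of all genes. Without WD + CHP replicate 5 again 0 were called, and the median was -0.05. Of the 93 genes, 64 then lay below 0, beside 51.8% of all genes.

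In WD + CHP vs. WD the lists of other cells had values on both sides of 0, with 0 genes called in any of them. Of all genes, 52.4% lay below 0. All 12 mesangial and juxtaglomerular markers lay below 0 (median -0.15), as did 13 of 14 glomerular endothelium markers (median -0.12), 11 of 12 immune cell markers (median -0.13), 7 of 10 parietal epithelium markers (median -0.04) and 8 of 14 loop, distal and collecting duct markers (median -0.01). Of the proximal tubule markers, 5 of 15 lay below 0 (median 0.03), and of the adipocyte markers 0 of 4 (median 0.62). Without WD + CHP replicate 5 the numbers below 0 were 12, 13, 8, 7, 10, 5 and 3 in the same order, beside 51.8% of all genes, and the medians were -0.15, -0.12, -0.05, -0.10, -0.03, 0.04 and -0.15. The 6 hepatocyte markers had 5 below 0 and a median of -1.69, which rested on WD replicate 5. Their sum was 774.6 CPM in that library, 157.8 to 246.1 CPM in the other 4 WD libraries and 177.7 to 261.1 CPM in WD + CHP, and without that library 0 of the 6 lay below 0 (median 0.10).

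The summed level of the 15 proximal tubule markers was 42430 to 46790 CPM in CD, 38520 to 42190 CPM in WD and 42120 to 47600 CPM in WD + CHP, and every WD library lay below every CD library. This difference was carried by *Kap*, the most abundant of them, with means of 20570, 16960 and 20490 CPM in CD, WD and WD + CHP. The other 14 markers summed to 22790 to 24520, 22840 to 24320 and 23380 to 26540 CPM, and these ranges overlapped. The part of any of these lists in the values of the 8 genes was not tested.

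In WD vs. CD, calls in the lists of other cells went in both directions, beside 9.65% of all genes called. Of 12 mesangial and juxtaglomerular markers 2 were higher, *Des* and *Acta2* at 0.36 and 0.39 (adjusted p 0.039 and 0.0308, edgeR), and of 14 endothelium markers 2 were higher, *Ehd3* and *Eng* at 0.33 and 0.25 (adjusted p 0.0134 and 0.0461, edgeR). Of 15 proximal tubule markers 2 were higher, *Slc13a3* and *Slc5a2* (0.43 and 0.40), and 3 lower, *Cubn*, *Kap* and *Slc27a2* (-0.32, -0.28 and -0.23), and of 14 loop, distal and collecting duct markers 3 were higher, *Pvalb*, *Calb1* and *Slc12a3* (0.51, 0.37 and 0.24). *Ttr*, of the hepatocyte list, was the 1 of 6 called and was higher, and *Cfd*, of the adipocyte list, was the 1 of 4 called and was lower. Of the parietal epithelium and immune cell markers 0 were called. The numbers below 0 were 1 of 12 mesangial and juxtaglomerular markers (median 0.19), 2 of 14 endothelium markers (0.07), 2 of 12 immune cell markers (0.22), 4 of 10 parietal epithelium markers (0.07), 8 of 15 proximal tubule markers (-0.04) and 8 of 14 loop, distal and collecting duct markers (-0.03), beside 49.6% of all genes. For the adipocyte markers the number was 4 of 4 (median -1.05) and for the hepatocyte markers 1 of 6 (median 1.29). Without WD replicate 5 these were 4 of 4 (median -1.64) and 4 of 6 (median -0.88). The values of WD vs. CD and those of WD + CHP vs. WD share the WD libraries. Without WD replicate 5, *Acta2*, *Kap* and, of the podocyte lists, *Vim* were not called, while *Clic5* (podocyte cytoskeleton, higher) and *Fgb* and *Fgg* (hepatocyte, lower) were.

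In WD + CHP vs. CD 6 of the 93 genes were higher and 5 lower, or 11.8% called, beside 12.1% of all genes. The higher ones were *Nck1* (an adaptor that binds phosphorylated nephrin, 0.15), *Tead1* (0.30), *Clic5* (0.23), *Ezr* (0.16), *Dpp4* (0.20) and *Pth1r* (0.21). The lower ones were *Kirrel3* (-0.92, at 0.289 CPM in WD + CHP and 0.548 CPM in CD), *Magi1* (-0.14), *Foxc1* (-0.26), *Itgb5* (-0.15) and *Cldn5* (-0.34). Among the slit diaphragm genes of this list, 1 was therefore higher and 2 were lower, of 17 tested. Without WD + CHP replicate 5 again 6 were higher and 5 lower, beside 11.4% of all genes, but they were not all the same genes. *Nck1*, *Magi1*, *Foxc1* and *Itgb5* were then not called, and *Synpo2* (higher), *Coro2b*, *Ddn* and *Efnb1* (lower) were called instead.

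The gastrocnemius, which has no podocytes, showed where the 8 genes are read outside the kidney. The tables were counted and scaled separately, so the levels are set side by side with no test. *Nphs1* had 0 or 1 count in every gastrocnemius library, 5 counts in all, and 10 of the 15 libraries had 0, which allows up to 3 counts in each of them. *Wt1* had 0 or 1 count in 14 libraries and 37 counts, or 0.711 CPM, in CD replicate 5. That library also had the most genes with a count, 24482 against 21333 to 22161 in the other 14, and whether this bears on its *Wt1* value was not tested. Neither passed the filter there.

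*Ptpro* had a mean of 0.729 CPM in gastrocnemius against 14.7 CPM in kidney, and *Magi2* 0.832 against 14.4 CPM. *Cd2ap* had 13.5 against 123.6 CPM, *Podxl* 75.9 against 214 CPM and *Plce1* 5.51 against 7.18 CPM. *Synpo* was the exception, with 219.8 CPM in gastrocnemius and 58.6 CPM in kidney, a ratio of kidney to muscle of 0.267. *Nphs1* and *Wt1* were thus the genes of the 8 with nearly all counts in kidney, whereas *Synpo*, *Podxl*, *Cd2ap* and *Plce1* were well read in muscle.

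**Figure D5:**
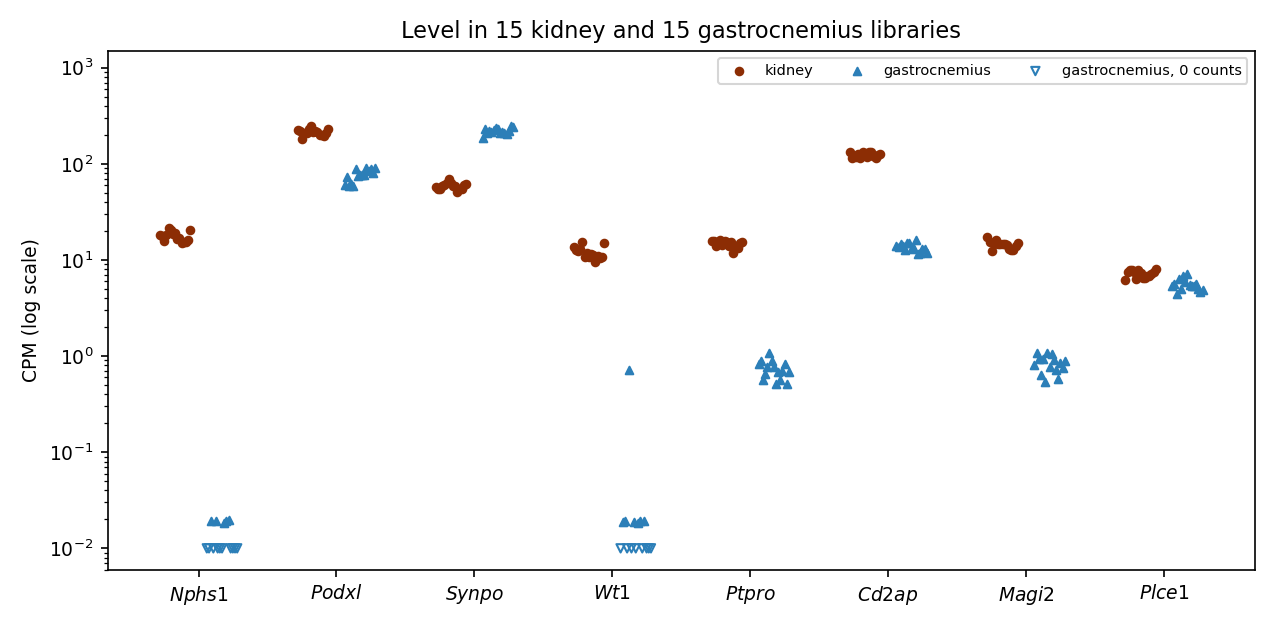
CPM of each gene on a log axis in the 15 kidney libraries (circles) and the 15 gastrocnemius libraries (filled triangles); open triangles at the foot mark gastrocnemius libraries with 0 counts. *Nphs1* and *Wt1* are at or near 0 in muscle except for 1 *Wt1* value of 0.711 CPM, and *Synpo* is higher in muscle than in kidney.

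A test of the 6 genes that passed the gastrocnemius filter was added after the counts had been seen. *Podxl* stood at 60.2, 72.4, 59.0, 61.2 and 59.3 CPM in CD, at 88.0, 74.6, 77.2, 75.6 and 76.9 CPM in WD, and at 91.1, 83.8, 89.3, 79.8 and 90.0 CPM in WD + CHP. Every WD and every WD + CHP library lay above every CD library, and the WD and WD + CHP ranges overlapped. *Podxl* was the 1 gene of the 6 whose groups did not overlap in WD vs. CD, beside 7.84% of all gastrocnemius genes, and in WD + CHP vs. CD, beside 8.75%. *Podxl* was 1 of 6 genes called in WD vs. CD (0.33 ± 0.0634 SE, adjusted p 0.00396, edgeR), beside 8.63% of all genes, and 1 of 6 in WD + CHP vs. CD (0.48 ± 0.0634 SE, adjusted p 0.000431, edgeR), beside 9.4%. WD + CHP vs. WD gave 0.15 ± 0.0632 (SE, adjusted p 0.349, edgeR). Leaving out each library in turn kept both calls, with adjusted p of 0.000393 to 0.0133 in WD vs. CD. In the kidney the same comparisons gave 0.11 and -0.02 for *Podxl*, and the difference between tissues was not tested. Podocalyxin is also made by vascular endothelium.

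In WD + CHP vs. WD 0 of the 6 genes were called by edgeR in gastrocnemius, beside 0.409% of all genes, and 3 were at an unadjusted p under 0.05, beside 12.5%. *Cd2ap* had 11.6, 11.8, 12.9, 12.8 and 11.8 CPM in WD + CHP and 13.1 to 16.0 CPM in WD. All WD + CHP libraries lay below all WD libraries, and it was the 1 gene of the 6 whose groups did not overlap, beside 2.83% of all genes. The log2 fold change was -0.25 ± 0.0619 (SE), with an adjusted p of 0.113 in edgeR and 0.0334 in DESeq2, which thus called 1 of 6, beside 1.61% of all genes.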

How the data were processed

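For kidney and gastrocnemius, the authors deposited tables of raw counts, the reads falling on each gene in each library, with no normalisation. Per the methods and the submitters' processing notes, polyA-enriched libraries were sequenced on the BGISEQ platform, cleaned with SOAPnuke and aligned to GRCm38 with STAR 2.7.3a. The counting tool, annotation and strand setting are not given in the sources used here. Of 54838 kidney gene IDs, 54809 were found in GENCODE M21.

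The main test was that of edgeR 4.0.16 (R 4.3.3), with DESeq2 1.42.0 and limma 3.58.1 as alternatives. Figures were made with matplotlib 3.10.9 (Python 3.11.15). Each tissue was filtered with filterByExpr (minimum count 10), scaled by TMM and fitted with all 3 groups in a quasi-likelihood model, two-sided, adjusted by Benjamini-Hochberg over all genes kept, with a threshold of 0.05. The fit was also run on simulated counts. These had the same relative spread for every gene and no deviating library, so they do not bear on results that turn on WD + CHP replicate 5. Log2 CPM used a prior count of 2, and each SE was the fold change divided by the root of its F statistic. Biological coefficients of variation were 9.62% (kidney) and 11.6% (gastrocnemius). Within each group, the libraries were further apart than sampling noise (chi-square per gene 8.82 to 24.7).

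All 8 members were named. Of each other list, at most 3 called genes with the largest change were named per comparison (all 5 for the proximal tubule in WD vs. CD), with the 10 genes most alike over libraries by Pearson's r, apart from items that are not reported here. The members and lists were chosen with earlier results of these data known, and *Ptgds* is in 2 lists. The gastrocnemius tests were added after its counts were seen. The alternatives were DESeq2, limma-voom, other scalings and filters, an adjusted p under 0.1, only the 2 groups compared, the replicate number as a block, an offset for the length and GC content of transcripts, and leaving out each library.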

Additional observations from a re-analysis of the deposited data

Results flagged for a closer look

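Each gene was searched in each group and tissue, 48 groups of 5 libraries, for a highest or lowest library whose gap to the nearest other, divided by the range of the group, was above 0.71. In all, 8 such groups were found. Chance gives about 1 in 20 for independent, normally distributed values. The groups here share libraries and some hold almost no counts, so that rate does not apply to them.

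In the kidney, WD + CHP replicate 5 was far above the other 4 libraries for *Nphs1* (ratio 0.836) and *Wt1* (0.742), and CD replicate 1 was far below the others for *Plce1* (0.724). In gastrocnemius, CD replicate 2 was the highest for *Podxl* (0.838), as was WD replicate 1 (0.799), and CD replicate 5 was the highest for *Wt1* (0.973, 37 counts against 0 or 1). The ratios of 1.0 for *Nphs1* and of 1.0 for *Wt1* in gastrocnemius WD + CHP each rest on a single count in 1 library.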

How the results depend on the processing

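Of 504 kidney values of single members under the alternatives, 470 kept their direction and their side of the threshold, 5 passed the threshold newly and 29 changed sign; in gastrocnemius the numbers were 329, 2 and 11. The values at an adjusted p under 0.1 repeat the main fit, so they could pass the threshold newly but could not change sign. All 40 that changed sign were uncalled. The count of kidney members called was 0 as reported and in every alternative, apart from 1 in WD vs. CD with only the 2 groups compared (*Wt1*), and in WD + CHP vs. CD 1 with total count scaling (*Magi2*, -0.23, adjusted p 0.0454, edgeR, beside 14.5% of all genes) and 0 to 2 when libraries were left out in turn. In gastrocnemius 1 member was called by DESeq2 in WD + CHP vs. WD and 2 in WD + CHP vs. CD where the threshold was 0.1 (*Cd2ap*, -0.18, adjusted p 0.0858, edgeR, besides *Podxl*). The cause of these changes was not tested.

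Sign changes in the kidney were 0.0031 for *Nphs1* in WD vs. CD with the replicate block, -0.0152 for *Wt1* in WD + CHP vs. WD with total count scaling, and in WD + CHP vs. CD 0.0144 and 0.0126 for *Synpo* with the length and GC correction without and with the block, and for *Cd2ap* -0.0374 with total count scaling and -0.0411 and -0.0410 with those corrections. In gastrocnemius total count scaling gave 0.0450 for *Magi2* in WD vs. CD and -0.0351 for *Synpo* in WD + CHP vs. WD. With libraries left out in turn, the log2 fold change ranged in kidney WD vs. CD from -0.0491 to 0.0610 for *Nphs1* and from -0.0022 to 0.0484 for *Cd2ap*, in WD + CHP vs. WD from -0.103 to 0.0796 for *Wt1* and from -0.0309 to 0.0250 for *Cd2ap*, and in WD + CHP vs. CD from -0.0594 to 0.0136 for *Podxl*, -0.0479 to 0.0240 for *Synpo*, -0.0023 to 0.0464 for *Cd2ap* and -0.0754 to 0.0079 for *Plce1*. In gastrocnemius it ranged from -0.0469 to 0.205 for *Ptpro* and -0.113 to 0.11 for *Magi2* in WD vs. CD, and from -0.0298 to 0.0393 for *Synpo* in WD + CHP vs. WD.

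Over all kidney genes, WD + CHP vs. WD gave 18 calls, but 194 with DESeq2, 75 at an adjusted p under 0.1, 37 without a filter, 70 with the block, 0 with the length and GC correction, 0 with only the 2 groups (1787 and 1991 at an unadjusted p under 0.05), and 0 to 97 with libraries left out. At an adjusted p under 0.1, WD vs. CD gave 2647 and WD + CHP vs. CD 3232, and the latter gave 1202 to 2150 with libraries left out. Total count scaling moved the median gene of WD + CHP vs. CD to -0.06 and its split from 1070 higher and 1000 lower to 660 and 1814. In gastrocnemius WD + CHP vs. WD gave 63 calls, 249 with DESeq2, 40 without a filter and 12 to 92 with libraries left out, and an adjusted p under 0.1 gave 2193 in WD vs. CD and 2429 in WD + CHP vs. CD, where libraries left out gave 873 to 1617. Libraries with the same replicate number did not deviate together in every pair (r from -0.226 to 0.237 in the kidney), so the number was not taken as a pairing; with the block 0 kidney members were called, and 1582, 70 and 1970 of all genes in WD vs. CD, WD + CHP vs. WD and WD + CHP vs. CD. In muscle *Nphs1* and *Wt1* did not pass the filter, and *Ptpro* and *Magi2* passed it with 26 to 57 counts in a library.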
